A study of Caenorhabditis elegans with 9 samples.

Results

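The genes described here are 9 genes of iron, heme and zinc handling in Caenorhabditis elegans: the ferritins ftn-1 and ftn-2, the divalent metal transporters smf-1, smf-2 and smf-3, the heme transporters hrg-1 and hrg-4, and the zinc transporters cdf-2 and ttm-1. They were chosen by name and found through their WormBase gene IDs, 9 of 46284 IDs in the deposited table. RNA-seq had been done on whole wild-type N2 animals, 500 per sample, kept 12 h in liquid culture. There were 3 libraries in each of 3 groups: animals treated with amino-functionalised graphene oxide (GONH2), animals treated with graphene oxide (GO, a carbon sheet carrying oxygen groups), and mock-treated animals (control). No dose, age or separate culture of replicates is stated in the labels, so p values measure only the spread between these samples, which may be technical.

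Ferritin is a hollow protein shell that stores iron, and in worms ferritin transcripts are known to be high when iron is plentiful and low when it is scarce. The SMF proteins are homologues of the mammalian transporter DMT1 and carry divalent metals such as iron and manganese into cells. Worms cannot make heme and take it up from food through HRG transporters, whose transcripts are known to rise when heme is scarce. CDF-2 moves zinc into the storage granules of intestinal cells, and TTM-1 moves zinc out of the cytoplasm. Much of this traffic runs through the intestine.

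Expression was given as FPKM (sequenced fragments scaled to the length of a gene and to the size of its library), which allows levels of different genes to be set side by side. Library sums of FPKM ran from 955606 to 1010904, with 12299 to 12676 genes at 1 FPKM or more. Read totals are not in the table, so the depth behind each value is unknown. Tests used limma on log2(FPKM + 1) over the 12849 genes that reached 1 FPKM in 3 or more libraries, with p adjusted over all of them by the Benjamini-Hochberg method. Differences on this scale understate the change of low genes. Of the 9 genes 8 passed this filter, and smf-2 did not. Defining markers of intestine, hypodermis, muscle, germline, neurons and pharynx were detected, with 34 of 35 markers at 1 FPKM or more in every library; the hypodermis gene rol-6 had between 0 and 0.328 FPKM. The summed level of 10 intestine markers lay between 5412 and 5761 FPKM with GONH2, between 5549 and 5823 with GO, and between 4926 and 5237 in control animals. Most of this sum came from spp-5, asp-1 and cpr-6, each at 1057 FPKM or more in every library, beside at most 308 for act-5. Of these 10 markers 2 (asp-1 and ges-1) were higher and 0 lower with GO, beside 1.26% of all genes called. Against control, 1 (asp-1) was higher and 0 lower with GONH2, beside 0.436%. Between GONH2 and GO 0 passed, beside 0.132%. With GO, 7 of the 10 log2 differences to control were above 0, and those of act-5, ifb-2 and pept-1 were below it. The part of the intestine markers in the values below was not tested, and in whole animals fewer cells of a type and less RNA per cell cannot be told apart.

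Levels of the 9 genes spanned several orders of magnitude in FPKM. ftn-2 stood far above the rest with a mean of 457 FPKM over the 9 libraries, ttm-1 followed at 24.3, and hrg-1 and ftn-1 averaged 12.8 and 11.7. Next came smf-1 at 8.23, cdf-2 at 6.46, smf-3 at 2.68 and hrg-4 at 2.21, and smf-2 was close to absent at 0.0745. The ranges over libraries did not overlap between ftn-2 and ttm-1, ttm-1 and hrg-1, cdf-2 and smf-3, or hrg-4 and smf-2. Neighbours in the order hrg-1, ftn-1, smf-1 and cdf-2 overlapped, as did smf-3 and hrg-4, and none of these orders held in every library. Within libraries, smf-1 exceeded cdf-2 in 8 of 9 and hrg-1 exceeded ftn-1 in 6. smf-3 exceeded hrg-4 in 5, and ftn-1 exceeded smf-1 in 4.

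**Figure D1:**
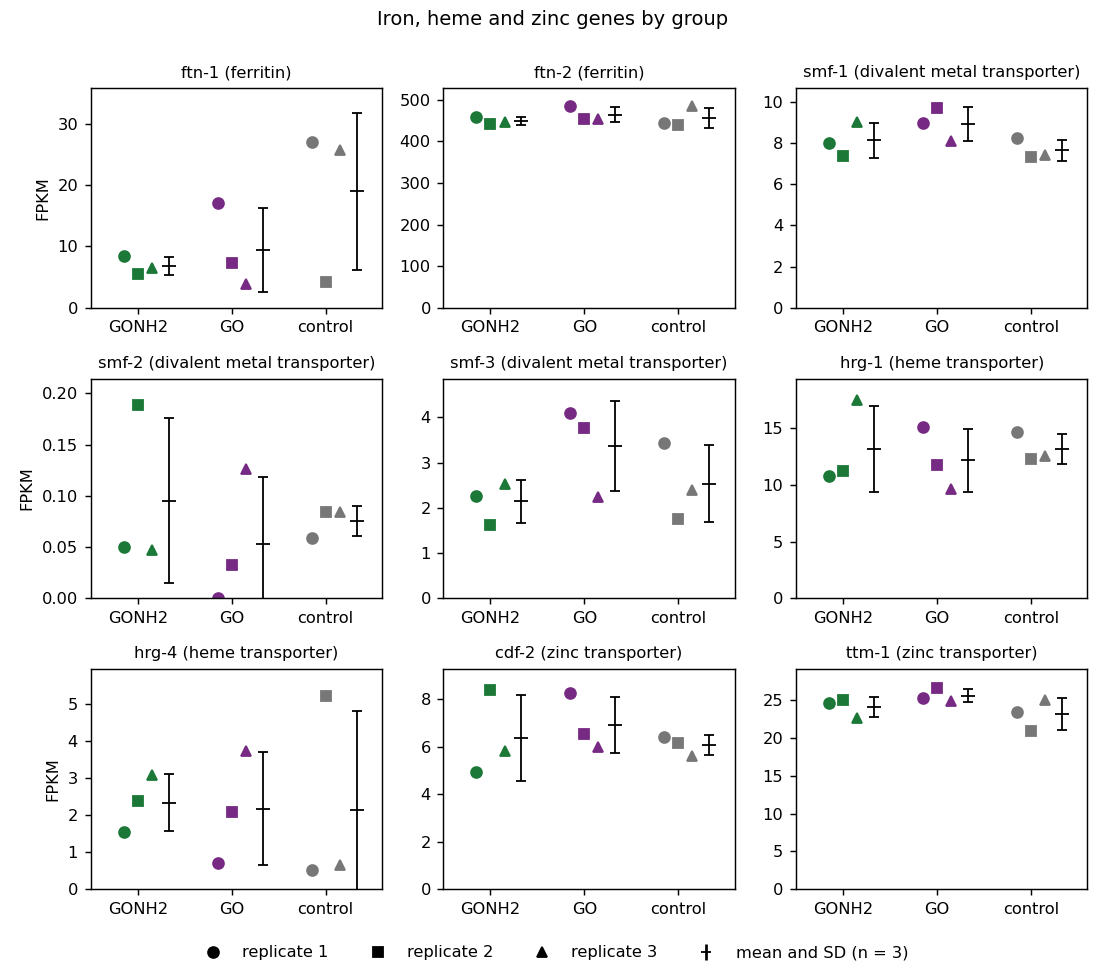
FPKM of the 9 genes in each library (vertical axes, linear, from 0), by group; symbols give the replicate number and black bars the mean and SD of 3 libraries, cut off at 0 where they would fall below it. ftn-1 lies between 3.91 and 26.9 FPKM and hrg-4 between 0.515 and 5.21, with the widest spread among control libraries, while ftn-2 stays between 439.6 and 486 FPKM.

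With GO, 0 of the 8 genes tested passed limma's threshold of adjusted p under 0.05, where 162 of all 12849 genes did (1.26%). The same held with GONH2 against control, with 0 of 8 beside a background of 0.436%, and for GONH2 against GO, with 0 of 8 beside 0.132%. At an unadjusted p under 0.05 the count was also 0 of 8 in each comparison, beside 7.74% of all genes with GO against control, 5.31% with GONH2 against control and 4.65% between the materials. Libraries of the compared groups overlapped in all 8 genes in each comparison, whereas 12.1% of genes had groups that did not overlap for GO and control, 8.83% for GONH2 and control, and 10% for GONH2 and GO. The median log2 difference of the 8 genes was 0.15 for GO minus control, beside 0.024 over all genes. It was 0.0063 for GONH2 minus control, beside 0.0031, and −0.10 for GONH2 minus GO, beside −0.024. A p that misses the threshold does not show that values were alike, and the intervals given below say how large a difference each gene could still have.

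Of the ferritins, ftn-1 (WBGene00001500, chromosome V, 7546468 to 7547579 in WBcel235) encodes the form best known for its iron response in the intestine. ftn-1 had 8.46, 5.47 and 6.54 FPKM in GONH2 replicates 1 to 3, 17.01, 7.36 and 3.91 FPKM in GO replicates 1 to 3, and 26.9, 4.28 and 25.6 FPKM in control replicates 1 to 3. The high values were those of control replicates 1 and 3 and GO replicate 1, while control replicate 2 lay below all 3 GONH2 libraries, so the groups overlapped. ftn-1 averaged 9.43 ± 6.79 FPKM with GO and 18.95 ± 12.7 FPKM in control animals (SD, n = 3 each), a log2 difference of −0.80 ± 0.67 (SE; 95% confidence interval −2.33 to 0.73; limma adjusted p = 0.892). With GONH2 it averaged 6.82 ± 1.52 FPKM, and the log2 difference to control was −1.03 ± 0.67 (−2.56 to 0.50; limma adjusted p = 1). Control replicate 2 weighed most on both values: without it they were −1.59 and −1.82 (limma adjusted p = 0.255 and 0.301). These intervals leave room for a difference of several-fold in ftn-1.

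ftn-2 (WBGene00001501, chromosome I, 3680180 to 3680927), the ferritin expressed at high level in many tissues, was steady. It had 459.8, 441 and 447 FPKM in the GONH2 libraries, 486, 454 and 454 FPKM in the GO libraries, and 444, 439.6 and 485 FPKM in the control libraries. Here the highest library was 1.11 times the lowest, beside 6.88 times for ftn-1. The log2 difference of ftn-2 was 0.028 ± 0.045 for GO minus control (−0.074 to 0.13) and −0.020 ± 0.045 for GONH2 minus control (−0.12 to 0.082), with limma adjusted p = 0.970 and 1. The sign of the first turned under both other scalings between libraries and without GO replicate 1, and that of the second without control replicate 3. In every library ftn-2 exceeded ftn-1, by 16.5 times in control replicate 1 and 116 times in GO replicate 3, with a median of 61.7. How fragments that match both ferritins were counted is not given in the sources used here.

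Among the divalent metal transporters, smf-3 (WBGene00004878, chromosome IV, 2618869 to 2625503) encodes the main intestinal importer of iron and manganese. Its levels were 2.27, 1.63 and 2.53 FPKM with GONH2, 4.10, 3.77 and 2.24 FPKM with GO, and 3.44, 1.75 and 2.398 FPKM in control animals. GO replicates 1 and 2 had the highest values of all 9 libraries, and GO replicate 3 lay under all but 1 of the remaining GO and control libraries. The log2 difference of smf-3 was −0.46 ± 0.23 for GONH2 minus GO (−0.99 to 0.069; limma adjusted p = 0.9997), 0.31 ± 0.23 for GO minus control (−0.22 to 0.83; adjusted p = 0.874) and −0.15 ± 0.23 for GONH2 minus control (−0.68 to 0.38; adjusted p = 1). The last of these turned sign without control replicate 1.

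smf-1 (WBGene00004876, chromosome X, 6719669 to 6723066), a second DMT1 homologue, had 7.98, 7.36 and 9.02 FPKM with GONH2, 8.97, 9.71 and 8.08 FPKM with GO, and 8.22, 7.30 and 7.40 FPKM in control animals. Among control libraries, only replicate 1, at 8.22 FPKM, reached into the range of the GO libraries. The log2 difference of GO minus control was 0.20 ± 0.099 (−0.028 to 0.42; limma adjusted p = 0.725), and that of GONH2 minus control was 0.075 ± 0.099 (−0.15 to 0.30; adjusted p = 1). smf-1 exceeded smf-3 in every library, by 2.19 to 4.53 times.

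smf-2 (WBGene00004877, chromosome X, 6716195 to 6718695) lies 973 bases from smf-1 on the same strand but was nearly silent. It had between 0.0473 and 0.188 FPKM with GONH2, between 0 and 0.126 with GO, and between 0.0586 and 0.0843 in control animals. It was listed at 0 in GO replicate 1. A gene on the opposite strand, nas-11, overlaps smf-2, and whether counting used strand is not given in the sources used here. With no filter on low values its limma adjusted p was 0.965 with GO and 1 with GONH2, each against control, and 0.983 between the materials.

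Of the heme transporters, hrg-4 (WBGene00009493, chromosome IV, 11030143 to 11030993) encodes the importer on the intestinal cell surface. hrg-4 had 1.55, 2.38 and 3.07 FPKM with GONH2, 0.689, 2.08 and 3.74 FPKM with GO, and 0.515, 5.21 and 0.655 FPKM in control animals. Control replicate 2 was the highest library and control replicates 1 and 3 the lowest, so the control group enclosed all libraries of both other groups. The log2 difference was 0.22 ± 0.56 for GO minus control (−1.07 to 1.51; limma adjusted p = 0.982), 0.39 ± 0.56 for GONH2 minus control (−0.90 to 1.68; adjusted p = 1) and 0.17 ± 0.56 for GONH2 minus GO (−1.12 to 1.46; adjusted p = 0.9997). The GO minus control difference turned sign without control replicate 1 (−0.14), control replicate 3 (−0.075) or GO replicate 3 (−0.13), and GONH2 minus control ran from 0.030 to 1.05 with 1 library left out. The hrg-4 paralogues hrg-5 and hrg-6 lie on either side, 714 and 1594 bases away. hrg-5 had at most 0.441 FPKM in each library, and hrg-6 lay between 2.23 and 4.81 FPKM.

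hrg-1 (WBGene00019830, chromosome X, 4008057 to 4016221) encodes the heme transporter of endosomes and lysosomes. Its levels were 10.7, 11.2 and 17.5 FPKM with GONH2, 15.1, 11.7 and 9.61 FPKM with GO, and 14.7, 12.3 and 12.6 FPKM in control animals. The highest value, in GONH2 replicate 3, stood alone above the other 8 libraries, which lay at 15.1 FPKM or below, and the lowest was in GO replicate 3. The log2 difference was −0.12 ± 0.20 for GO minus control (−0.58 to 0.33) and −0.028 ± 0.20 for GONH2 minus control (−0.49 to 0.43), with limma adjusted p = 0.970 and 1. Both changed sign when certain single libraries were left out. hrg-1 overlaps mop-25.1 on the opposite strand and a non-coding RNA gene on its own strand, so its value may include their fragments. The ratio of hrg-1 to hrg-4 ran from 2.35 in control replicate 2 to 28.5 in control replicate 1.

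Of the zinc transporters, ttm-1 (WBGene00012712, chromosome III, 12952969 to 12966995) was the second most abundant of the 9 genes. It had 24.7, 25.0 and 22.6 FPKM with GONH2, 25.4, 26.7 and 24.9 FPKM with GO, and 23.5, 20.9 and 25.1 FPKM in control animals. GO libraries occupied the upper end and overlapped control by 1 library, control replicate 3. The log2 difference was 0.14 ± 0.072 for GO minus control (−0.020 to 0.31; limma adjusted p = 0.725) and 0.056 ± 0.072 for GONH2 minus control (−0.11 to 0.22; adjusted p = 1). The difference for GONH2 turned sign without control replicate 2.

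cdf-2 (WBGene00011821, chromosome X, 12464640 to 12466917) had 4.92, 8.40 and 5.81 FPKM with GONH2, 8.27, 6.53 and 5.97 FPKM with GO, and 6.43, 6.17 and 5.63 FPKM in control animals. GONH2 replicates 1 and 2 were the lowest and the highest of the 9 libraries. The log2 difference was 0.15 ± 0.18 for GO minus control (−0.25 to 0.56; limma adjusted p = 0.935) and 0.033 ± 0.18 for GONH2 minus control (−0.37 to 0.44; adjusted p = 1). The GONH2 difference of cdf-2 turned sign without control replicate 3 or GONH2 replicate 2.

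Between the materials, GONH2 and GO differ in the amino groups added to the sheet, and their doses are not stated. The log2 difference of GONH2 minus GO was −0.23 ± 0.67 for ftn-1 (−1.76 to 1.305), −0.048 ± 0.045 for ftn-2 (−0.15 to 0.054), −0.12 ± 0.099 for smf-1 (−0.35 to 0.10), 0.096 ± 0.20 for hrg-1 (−0.36 to 0.56), −0.087 ± 0.072 for ttm-1 (−0.25 to 0.077) and −0.12 ± 0.18 for cdf-2 (−0.52 to 0.28). The limma adjusted p was 0.9997 for each, and the 3 comparisons share libraries. Of the 8 genes smf-3, given above, had the largest difference between the materials, lower with GONH2 in all settings tried but not past the threshold. The sign of this difference turned for ftn-1 and hrg-4 without GO replicate 1, for hrg-1 without GO replicate 3 or GONH2 replicate 3, and for cdf-2 without GONH2 replicate 1.

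**Figure D2:**
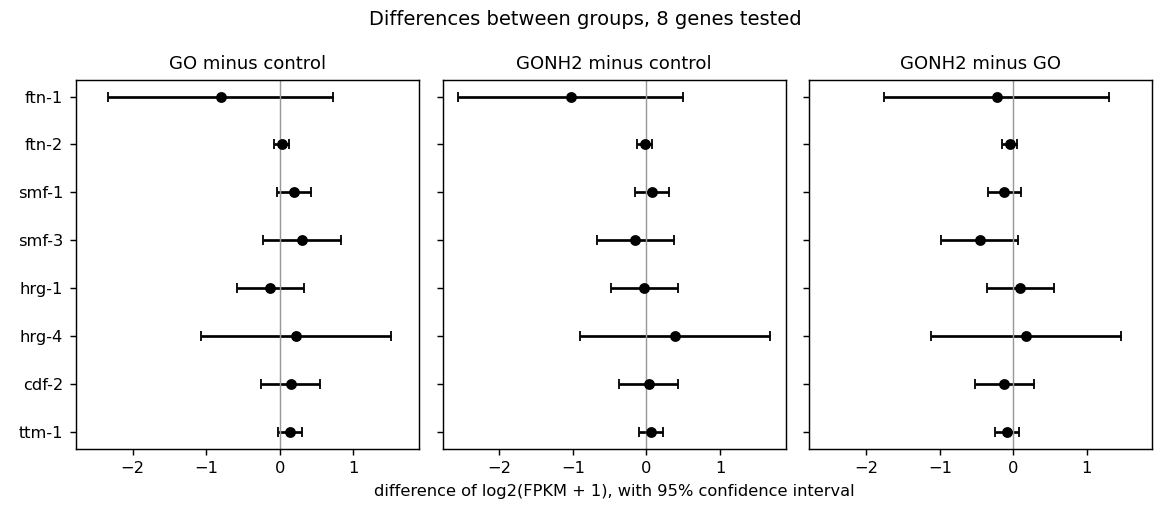
Differences of log2(FPKM + 1) for the 8 genes tested (rows), with 95% confidence intervals from the fit to 9 libraries, for the 3 comparisons named above the panels. All intervals cross 0; they are narrow for ftn-2 (−0.074 to 0.13 for GO minus control) and wide for ftn-1 (−2.33 to 0.73) and hrg-4 (−1.07 to 1.51).

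Other genes of iron, heme and zinc handling did not pass the threshold either. Of 11 other iron genes 9 were matched and tested, of 7 other heme genes 5 were tested and of 20 other zinc genes 19, and limma called 0 of these 33 in each comparison. At an unadjusted p under 0.05 there were 5 of 33 for GO against control, beside 7.74% of all genes. They were frh-1, nfs-1, hrg-7, mtl-2 and cdf-1. There was 1 of 33 for GONH2 against control, beside 5.31% of all genes, and 1 of 33 between GONH2 and GO, beside 4.65%; in both it was mtl-2 (limma unadjusted p = 0.0309 and 0.0469). The list medians for GO minus control were 0.090 for iron, −0.014 for heme and 0.039 for zinc genes, beside 0.024 for all genes.

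The metallothionein gene mtl-2, which encodes a small protein that binds zinc and cadmium, came nearest to the threshold. It averaged 69.0 FPKM with GO and 86.9 FPKM in control animals, with groups that did not overlap, a log2 difference of −0.33 ± 0.067 (limma adjusted p = 0.0693). With GONH2 it averaged 77.0 FPKM (−0.17 ± 0.067 against control, adjusted p = 0.818). hrg-7, which encodes a secreted protein that carries a heme signal between tissues, averaged 29.8 FPKM with GO and 22.5 FPKM in control animals (0.39 ± 0.097, limma adjusted p = 0.170). Its GO libraries were all above its control libraries. For GO and control, groups did not overlap in 1 of 9 iron, 1 of 5 heme and 2 of 19 zinc genes, beside 12.1% of all genes. Besides mtl-2 and hrg-7, these were nfs-1 and cdf-1. cdf-1, another zinc exporter, differed by 0.14 (adjusted p = 0.509), the frataxin gene frh-1 by 0.17 and nfs-1, of iron-sulfur cluster assembly, by 0.090 for GO minus control (adjusted p = 0.611 and 0.623). For heme, hrg-2 differed by −0.30 for GO minus control (adjusted p = 0.848).

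In the other comparisons the smallest adjusted p of these lists was farther from the threshold, 0.818 (mtl-2) for GONH2 against control and 0.9997 between the materials by limma. frh-1, hrg-2 and hrg-7 differed by 0.11, −0.17 and 0.21 for GONH2 minus control, and the ferroportin gene fpn-1.2 and the zinc transporter gene zipt-13 by 0.22 and −0.11 (limma adjusted p = 0.980 to 1). For GONH2 minus GO, nhr-14, a nuclear receptor gene linked to iron uptake, differed by −0.26, nfs-1 by −0.050, hrg-7 by −0.19, hrg-9 by −0.13, mtl-2 by 0.16 and zipt-13 by −0.12 (each with limma adjusted p = 0.9997).

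The spread among libraries of the same group set ftn-1 and hrg-4 apart from the other genes described. The SD within groups on the log2 scale was 0.97 for ftn-1 and 0.81 for hrg-4, beside a median of 0.11 over all genes tested. Only 1.19% and 1.67% of the tested genes had a larger one. For smf-3, hrg-1 and cdf-2 the SD was 0.31, 0.28 and 0.24, and smf-1, ttm-1 and ftn-2 lay at 0.11, 0.090 and 0.058. Of the wider set, mtl-1 (1.12) had a wider spread than both, and zipt-2.3 (0.65), a ZIP family zinc transporter gene, lay below hrg-4 and above smf-3; these were singled out after their values were seen. The range of ftn-1 on the log2 scale was 0.55 among GONH2 libraries, 1.87 among GO libraries and 2.404 among control libraries, and that of hrg-4 was 0.67, 1.49 and 2.04. Whether the spread differs between groups was not tested.

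**Figure D3:**
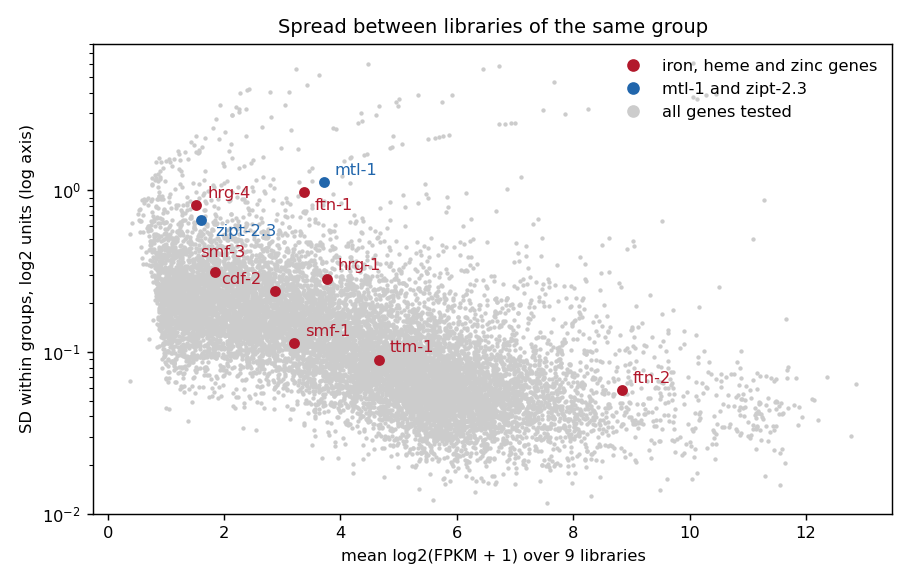
SD within groups (vertical, log axis) against mean log2(FPKM + 1) over 9 libraries (horizontal) for the genes tested (grey), the 8 iron, heme and zinc genes (red) and mtl-1 and zipt-2.3 (blue). ftn-1 (SD 0.97) and hrg-4 (0.81) lie in the upper margin of the cloud, and ftn-2 (0.058) lies below the median SD of 0.11.

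ftn-1 and hrg-4 ran in opposite directions across the libraries. In GO replicate 1, control replicate 1 and control replicate 3, ftn-1 stood at 17.01, 26.9 and 25.6 FPKM and hrg-4 at 0.689, 0.515 and 0.655 FPKM. In the other 6 libraries ftn-1 was at most 8.46 FPKM and hrg-4 at least 1.55 FPKM. Over the 9 libraries Pearson's r of the log2 values was −0.946 (exact permutation p = 1.10e-04) and Spearman's rho −0.967 (exact permutation p = 1.65e-04), two-sided. Adjusted over the 94 relations computed, p was 0.00945 for r and 0.0155 for rho. Without control replicates 1 and 3, the libraries farthest from the median of ftn-1, r was −0.933. Because the 3 libraries with high ftn-1 stand apart, r was also taken within the remaining 6, where it was −0.866 (exact permutation p = 0.0292; rho −0.886, exact permutation p = 0.0333). Taken as deviations from the group means, r was −0.984, so it was as large among libraries of the same treatment. The libraries share their processing, and the relation was noticed after the values had been seen. Of 28 pairs among the 8 genes it was the only one with an adjusted p under 0.05. smf-1 and smf-3 came next, with r = 0.802 and rho = 0.833 (exact permutation p = 0.0101 and 0.00827, adjusted 0.0727 and 0.0706), and r = 0.884 without GONH2 replicate 3 and GO replicate 2.

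Some of the wider set moved with this pair. Among 66 relations of ftn-1 and hrg-4 with the other 33 genes, 10 had an adjusted exact permutation p under 0.05 by r, 5 with each gene, and 3 had one by rho. ftn-1 and hrg-4 ran against each other, so the sets are not separate: zipt-2.4, zipt-2.3 and toc-1 were in both. These relations were not planned, and only this pair, whose own relation had been noticed in the same values, was set against the listed genes. The adjustment does not cover that choice. For toc-1, of the zinc list, r was −0.882 with ftn-1 and 0.849 with hrg-4 (adjusted exact permutation p = 0.0189 and 0.0239). hrg-9 ran against hrg-4 (r = −0.880, adjusted exact permutation p = 0.0274). By rho the adjusted p of these 3 relations was 0.0571. The unadjusted p of these 10 was at most 0.00396; of the 12848 other genes, 2.21% reached that limit with ftn-1 and 3.81% with hrg-4, beside 15.2% (5 of 33) of the listed genes with each. This limit was set by the listed genes themselves, so the shares are a description. By rho the 3 were zipt-2.4 with each gene and fpn-1.2 with ftn-1 (rho = −0.90, adjusted exact permutation p = 0.0477). For fpn-1.2 r was −0.777, and it fell to −0.509 without control replicates 1 and 3. The ZIP family gene zipt-2.4, at 43.7 to 54.8 FPKM over the libraries, ran with hrg-4 (r = 0.856, adjusted exact permutation p = 0.00945; rho = 0.917, adjusted 0.0411; r = 0.811 without control replicates 1 and 2). Its relation with ftn-1 (r = −0.807; rho = −0.917; exact permutation p = 6.59e-04 and 0.00131, adjusted 0.0173 and 0.0411) rested on control replicates 1 and 3, without which r was −0.572. hrg-4 ran with zipt-2.3 (r = 0.929, adjusted exact permutation p = 0.0173; rho = 0.850, adjusted 0.0571; r = 0.857 without control replicates 1 and 2) and against mtl-1 (r = −0.913, adjusted exact permutation p = 0.0189; rho = −0.850, adjusted 0.0571; r = −0.855 without the same libraries). zipt-2.3 had 2.69, 2.87 and 3.51 FPKM with GONH2, 0.856, 1.87 and 2.52 FPKM with GO, and 0.5848, 4.93 and 1.01 FPKM in control animals. mtl-1, the second metallothionein gene, had 25.8, 11.8 and 7.22 FPKM with GONH2, 27.5, 11.2 and 4.5998 FPKM with GO, and 24.3, 3.69 and 16.5 FPKM in control animals. The libraries low in hrg-4 were thus also low in zipt-2.3 and high in mtl-1, and GONH2 replicate 1 was high in mtl-1 too. The ferroportin gene fpn-1.1, of the iron exporter family, ran against ftn-1 (r = −0.836, adjusted exact permutation p = 0.0274; rho = −0.867, adjusted 0.0571; r = −0.793 without control replicates 1 and 3).

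**Figure D4:**
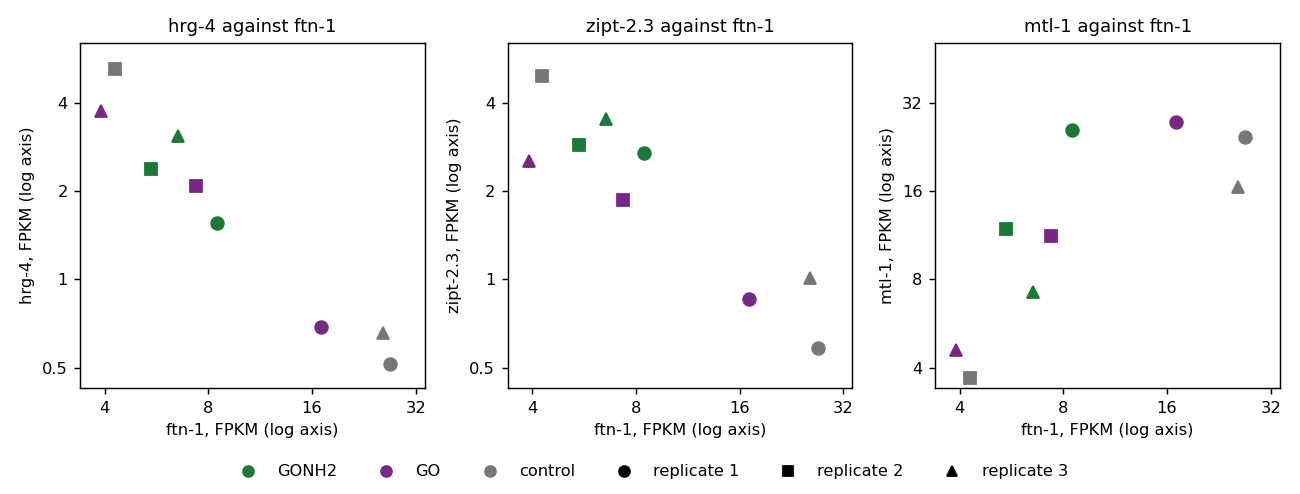
FPKM of hrg-4, zipt-2.3 and mtl-1 (vertical, log axes) against ftn-1 (horizontal, log axis) in the 9 libraries; colours give the group and symbols the replicate number. hrg-4 is lower where ftn-1 is higher, between 5.21 FPKM in control replicate 2 and 0.515 FPKM in control replicate 1, with libraries of the 3 groups interleaved. The relation of ftn-1 with mtl-1 did not pass the threshold (r = 0.775, adjusted exact permutation p = 0.113). That with zipt-2.3 passed by r (−0.896, adjusted exact permutation p = 0.0244) but not by rho (−0.767, adjusted 0.118).

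The spread reached beyond metal genes. At |r| of 0.9 or more over the 9 libraries, hrg-4 was correlated with 188 of 12848 other genes (1.46%) and ftn-1 with 116 (0.903%), beside a median of 0.132% over all genes tested; for the other 6 genes tested the share was between 0.0156% and 0.381%. By r, the genes with a symbol most like hrg-4 were mup-4 (0.989), ifbp-1 (0.986) and acox-1.1 (0.973), an acyl-CoA oxidase gene. Those most like ftn-1 were sbt-1 (0.963), chaf-2 (0.937) and ugt-1 (0.932), and those most like cdf-2 were sprp-4 (0.913), kin-14 (0.869) and vet-1 (0.852). These are the highest of 7296 genes searched and carry no test. mup-4 ran between 14.97 and 19.7 FPKM and sbt-1 between 61.2 and 73.0 FPKM, far narrower ranges than those of hrg-4 and ftn-1. In GO replicate 1, control replicate 1 and control replicate 3, intestine markers summed to 5549, 4926 and 5001 FPKM and hypodermis markers to 1141, 1286 and 1157 FPKM. The remaining 6 libraries had 5237 to 5823 FPKM for intestine and 1060 to 1215 FPKM for hypodermis. asp-1, a large part of the intestine sum, had 1211 to 1277 FPKM in the control libraries, replicate 2 included, and 1574 FPKM or more in treated ones. The intestine marker pept-1 was lowest in the 3 libraries with high ftn-1, at 16.8, 16.8 and 20.9 FPKM. Some others did not follow. ges-1 (27.8 FPKM) and vha-6 (92.5 FPKM) were highest of the 9 libraries in GO replicate 1, and ifb-2 (71.5 FPKM) in control replicate 1. The part of tissue makeup in this spread was not tested.

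By replicate number, the 3 libraries numbered 1 averaged 17.5 FPKM of ftn-1, those numbered 2 averaged 5.70 and those numbered 3 averaged 12.0. For hrg-4 the averages were 0.919, 3.22 and 2.49 FPKM. Libraries numbered 1 had the highest ftn-1 of each group and the lowest hrg-4 of each group. Libraries numbered 2 and 3 did not keep an order: ftn-1 was higher in replicate 3 than in replicate 2 with GONH2 and in control animals, and lower with GO. In the fit with group and replicate number, limma's F test for the number called 0 of the 8 genes (adjusted p = 0.807 for ftn-1 and 0.810 for hrg-4; 0 of 8 at an unadjusted p under 0.05), beside 0.00778% of all genes adjusted and 5.91% unadjusted. Of the 33 other genes it called 0, and 3 had an unadjusted p under 0.05. They were mtl-2, zipt-15 and mtl-1 (limma F test, unadjusted p = 0.0178, 0.0217 and 0.0369). mtl-1 and zipt-15 were highest in replicate 1 of each group, and mtl-2 in replicate 1 of GONH2 and GO but not of control.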

How the data were processed

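RNA-seq was analysed in 9 samples of whole animals. Per the labels, RNA was taken from TRIzol lysates on RNeasy columns and sequenced paired-end from stranded TruSeq libraries on an Illumina HiSeq. The deposited values are FPKM, made by the authors; neither aligner and counting program nor genome build is given in the sources used here. Per the submitters' processing notes DESeq2 was used, in a role unknown here, and no count method was run on these FPKM. IDs were matched to symbols (43325 of 46284) and to positions in WBcel235 (Ensembl release 115).

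A model with group as the only term was fitted to log2(FPKM + 1) with limma 3.58.1 in R 4.3.3 over all 9 libraries, with a mean-variance trend, and tested on simulated data. Genes and lists were chosen with earlier results of these data known. By rule, all 9 genes were named, with up to 2 genes of smallest p per list and comparison. The 3 genes most like ftn-1, hrg-4 and cdf-2 were also named by rule. mtl-1, zipt-2.3, zipt-2.4, zipt-15, toc-1, hrg-5, hrg-6, fpn-1.1 and the single intestine markers were named after their values were seen. Correlations used exact permutation of 9 libraries. fpn-1.3 and lpd-8 were unmatched; hrg-3, hrg-5 and zipt-17 did not pass the filter. Alternatives covered the added value, filter, scaling, trend, replicate number and each library left out. Sequences were not used here. Figures were drawn with matplotlib 3.10.9.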

Additional observations from a re-analysis of the deposited data

How the results depend on the processing

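Over 450 alternative values of the 24 differences, 0 had an adjusted p under 0.05 (lowest 0.255). In each refit 0 of the genes tested was called, also by replicate number. With a filter of 5 FPKM in 3 libraries, smf-3 and hrg-4 were not tested. The sign turned in 20 of the values, 18 of them with 1 library left out. Another filter, gene set or trend does not change a difference, so its sign could not turn there. The same holds for replicate number in the fit, the 6 libraries of the comparison alone, and the third group's libraries left out. For ftn-2, GO minus control was −0.0016 under median-of-ratios scaling and −0.014 under quantile normalization. Without single libraries, GO minus control ranged from −0.0055 to 0.072 for ftn-2, −0.28 to 0.020 for hrg-1 and −0.14 to 0.88 for hrg-4. GONH2 minus control ranged from −0.16 to 0.18 for cdf-2, −0.046 to 0.024 for ftn-2, −0.24 to 0.091 for hrg-1, −0.32 to 0.028 for smf-3 and −0.012 to 0.11 for ttm-1. GONH2 minus GO ranged from −0.31 to 0.024 for cdf-2, −0.67 to 0.27 for ftn-1, −0.11 to 0.25 for hrg-1 and −0.22 to 0.52 for hrg-4. The correlation of ftn-1 and hrg-4 lay between −0.932 and −0.984 with other added values, other scalings, single libraries left out and deviations from group means, and was −0.866 within the 6 libraries with lower ftn-1; these alternatives were added after the data were seen.

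Background counts over all genes moved more. For GONH2 against control, 56 genes became 32 with no filter, 27 without a trend, 33 with the 6 libraries of the comparison and 29 with the replicate block. For GONH2 against GO, 17 became 9 without a trend and 8 with the replicate block. Without single libraries the counts were 107 to 162 for GO against control, 25 to 54 for GONH2 against control, 1 to 20 for GONH2 against GO and 0 to 7 for replicate number. The 1 gene called by replicate number (T25C12.11, outside the genes described and named after its values were seen) became 0 with no filter and without a trend. The count was also 0 with protein-coding genes only, a setting that says nothing about T25C12.11 if the gene is not in that set. Libraries with equal numbers correlated at −0.17 to 0.13 in their deviations from group means. Those with unequal numbers ran wider, from −0.25 (GO replicate 1 with control replicate 2) to 0.27 (GO replicate 3 with control replicate 2). Over all genes the numbers are thus not shown to pair libraries. T25C12.11, however, had 221, 102 and 64.2 FPKM in replicate 1 of GONH2, GO and control, and 0 in all other libraries. What the libraries numbered 1 may share was not tested. Causes were not tested. Depth is unknown, which leaves the precision of low genes such as smf-2 and hrg-4 open to counting error.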
